A study of Caenorhabditis elegans with 4 samples.

Results

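Rab proteins are small GTPases that mark membrane compartments and recruit the factors that move, tether and fuse vesicles. Presented here are the occupancy peaks of EGL-27, a worm protein of the MTA family of chromatin factors, at 10 Rab GTPase genes of Caenorhabditis elegans, among 19985 annotated protein-coding genes. The genes are rab-1, rab-2, rab-6.1 and rab-6.2, whose proteins act at the endoplasmic reticulum and the Golgi, rab-5, rab-7, rab-10 and rab-11.1, whose proteins act on endosomes, and rab-3 and rab-8, whose proteins act in secretion. They were chosen by name with the peaks of these same lists already known. The counts below are therefore descriptions, and no test is attached to them. The share of all protein-coding genes is given beside the counts of members with a summit in the main window and lists. Alternative settings, except leaving out a replicate, are given without that share.

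The study profiled EGL-27 by ChIP-seq in whole larvae of the third stage (L3), in 1 group of 4 biological replicates and with no second condition. The worms, of pooled sex, were strain OP177 with the genotype unc-119(ed3) III; wgIs177, and the tagged protein carried GFP and FLAG at its C terminus. The tagged protein came from an integrated transgene. The labels give the antibody as egl-27, and whether it bound the tag or EGL-27 itself is not known. Whole animals were used, so the tissue in which a gene was occupied is unknown. The data were the authors' peak lists on the genome build ce11. Replicates 1 to 4 had lists of 30000, 6602, 19304 and 12990 peaks, which hold background as well as peaks, and the pooled list, made from all 4, had 28056. A much shorter list kept the peaks that passed an IDR filter (irreproducible discovery rate), which asks whether replicates rank a peak alike. Every one of its peaks was in the pooled list, and together they were the strongest of that list by the authors' signal value. Peaks are given below by their rank on that value within a list, rank 1 being the strongest. Read depth is unknown, and because the lists differ in length their ranks cannot be read as changes between replicates.

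A Rab protein is active when bound to GTP and inactive when bound to GDP. Guanine nucleotide exchange factors switch it on, GTPase-activating proteins of the TBC family switch it off, and a GDP dissociation inhibitor returns it to the cytosol. Effectors that bind only the active form, such as tethers, then act with coats and SNARE proteins to pass cargo from one compartment to the next.

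Sequences under the peaks are shown for 3 members, because these carry different kinds of peak: an IDR peak in a promoter shared by several genes (rab-7), an intronic peak between alternative 5′ ends of one gene (rab-3) and a weaker promoter peak (rab-6.2). Each is 300 bases of the plus strand of ce11 around the summit of the pooled peak, from the RefSeq genome of the assembly WBcel235. The stretches are chrII:11967529-11967828 for rab-7, chrII:5725126-5725425 for rab-3 and chrX:17221934-17222233 for rab-6.2. Both rab-7 and rab-3 are transcribed from the minus strand and rab-6.2 from the plus strand. Capitals mark matches, on either strand, to 6 short motifs: the GAGA repeat GAGAGAG, the E-box CACGTG, and the GATA motif in the form TGATAA, the form TGATAG, the form AGATAA or the form AGATAG.

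rab-7: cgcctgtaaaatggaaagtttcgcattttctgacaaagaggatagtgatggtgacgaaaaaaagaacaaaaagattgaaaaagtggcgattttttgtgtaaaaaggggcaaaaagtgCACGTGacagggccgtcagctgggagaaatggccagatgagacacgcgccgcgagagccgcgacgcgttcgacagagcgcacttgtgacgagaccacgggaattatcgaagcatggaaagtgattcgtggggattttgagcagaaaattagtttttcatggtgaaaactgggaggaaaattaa
rab-3: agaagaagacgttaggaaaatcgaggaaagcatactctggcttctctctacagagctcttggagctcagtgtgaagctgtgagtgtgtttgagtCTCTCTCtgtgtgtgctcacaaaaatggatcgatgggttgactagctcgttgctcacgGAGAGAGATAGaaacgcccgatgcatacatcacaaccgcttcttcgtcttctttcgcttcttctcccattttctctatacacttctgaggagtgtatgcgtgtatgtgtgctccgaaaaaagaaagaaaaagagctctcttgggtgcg
rab-6.2: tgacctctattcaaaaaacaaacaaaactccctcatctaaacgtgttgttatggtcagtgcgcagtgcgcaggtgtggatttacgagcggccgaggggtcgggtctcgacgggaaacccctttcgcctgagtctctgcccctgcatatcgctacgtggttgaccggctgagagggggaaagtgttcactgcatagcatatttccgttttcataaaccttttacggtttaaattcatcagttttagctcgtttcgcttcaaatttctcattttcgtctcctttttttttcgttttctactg

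The rab-7 stretch holds 1 match, an E-box that starts 33 bases before the summit. The rab-3 stretch holds 3 matches, a GAGA repeat on each side of the summit and an AGATAG that overlaps the GAGA repeat on the right. The rab-6.2 stretch holds 0 matches.

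The promoter window of a gene held the 1000 bp before its annotated 5′ end and the 200 bp after it. Of the 10 Rab genes, 4 had an IDR summit in this window: rab-2, rab-7, rab-11.1 and rab-5. Of all protein-coding genes 2.6% (519) had one. The summit of rab-2 had rank 152 with a signal value of 43.6, that of rab-7 rank 346 (32.8), that of rab-11.1 rank 391 (31.7) and that of rab-5 rank 635 (26.7). The rab-5 summit was thus the weakest among members inside the IDR list, and the strongest pooled summit of a member outside it was in the body of rab-3 (rank 2339, 15.2). A pooled summit of any strength lay in the windows of 6 of the 10, against 37.5% of all protein-coding genes (7496). The other two were rab-6.2 (rank 8229) and rab-10 (rank 16703), both far below the IDR limit. The median rank of the strongest pooled summit was 513 over these 6 members, and 9750 over all 7496 genes with one. The windows of rab-1, rab-3, rab-6.1 and rab-8 held no pooled summit.

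Among the genes of the early secretory pathway, rab-2 had the strongest promoter peak of the 10 members in the pooled list. The files name it unc-108 (WBGene00006833), and RefSeq gives its product as Rab-2, a Golgi-associated GTPase known in worms for the maturation of dense core vesicles and the clearance of dying cells. The gene lies on the plus strand of chromosome I from 3822883 to 3826514, and its promoter summit at 3822871 was 12 bp upstream of the 5′ end. No other protein-coding gene had a promoter window there, and the nearest gene upstream, npp-11, ended 1387 bp away on the same strand. The strongest window summit had rank 90 in replicate 1, 1338 in replicate 2, 628 in replicate 3 and 312 in replicate 4. All 4 replicates thus had a summit near the start of the gene, within 12, 18, 126 and 0 bp of the pooled one, and replicate 2 had the weakest rank.

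Another IDR peak of rab-2, at rank 390, was the 1 IDR peak in any member's gene body. Its summit at 3824459 lay in the first intron of the longest transcript, an intron of 2041 bp, and 1576 bp downstream of the 5′ end. Shorter transcripts of the gene begin at 3824947 and 3825142, which put the same summit 488 and 683 bp upstream of their 5′ ends. In the replicates the nearest summits lay 18, 51, 39 and 4 bp away, with ranks 366, 1805, 2108 and 11801. The last value, from replicate 4, is among the weaker peaks of its list, in which a stronger summit of rank 1058 lay 1262 bp downstream of the 5′ end. IDR summits in gene bodies were rare in general, at 1.04% of all protein-coding genes (207).

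The gene rab-1 (WBGene00004266; V, 1262629 to 1263989, minus strand), whose GTPase serves transport from the endoplasmic reticulum to the Golgi, had no pooled summit in its window or body. The strongest window summit had rank 16512 in replicate 1 and rank 3739 in replicate 3, and replicates 2 and 4 had none. These summits lay 357 and 560 bp upstream, so they did not mark one place. In the body, the strongest summit of replicate 3 (rank 6235) lay in a coding exon 122 bp downstream of the 5′ end, and thus also in the window. Replicates 1 and 3 both had a weak summit in the 3′ untranslated region, at 1262633 (rank 16330) and 1262658 (rank 14223).

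The paralogues rab-6.1 and rab-6.2 encode Rab6 GTPases, which act in transport back to the Golgi, and neither had an IDR summit in its window or body. At rab-6.1 (WBGene00004269; III, 9004821 to 9005955, minus strand) the 1 summit in any list was one of rank 9491 in replicate 3, 951 bp upstream. At rab-6.2 (WBGene00004270; X, 17222475 to 17224465, plus strand) the pooled list had window summits 391 bp upstream (rank 8229, −log10 q-value 0.66) and 125 bp upstream (rank 9493). Replicate 1 had a summit of rank 1460 at the position of the first, replicate 3 one of rank 6870 and replicate 4 one of rank 11406, and replicate 2 had none. The summits of replicates 3 and 4 lay 217 and 430 bp from the pooled one, and only replicate 1 therefore placed a summit within 200 bp of it. The sequence of this peak is the third one shown above.

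**Figure D1:**
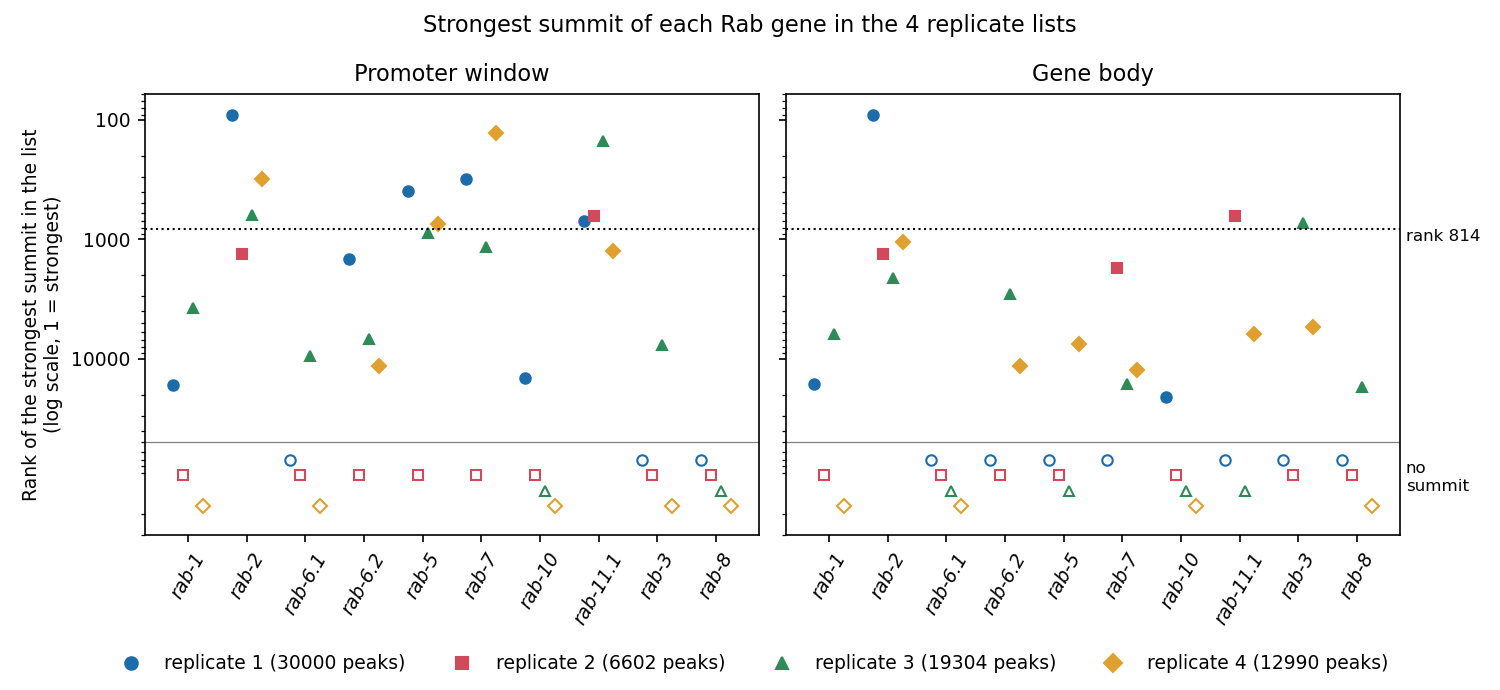
Rank of the strongest summit of each gene in the promoter window (left) and the gene body (right) in the 4 replicate lists, on a log axis with strong peaks at the top; the dotted line is the rank of the weakest IDR peak and open symbols in the lowest band mark lists with no summit. In the windows rab-2, rab-5, rab-7 and rab-11.1 pass that line in at least 2 replicates, and the other members in none. The first 200 bp of a gene belong to both regions, so a summit there can appear in both panels. This holds for rab-2 in replicates 1 and 2 (ranks 90 and 1338). It also holds for rab-11.1 in replicate 2 (rank 642) and rab-6.2 in replicate 4 (rank 11406).

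Among the endosomal genes, 3 of 4 had an IDR peak in the window, against 2.6% of all protein-coding genes. This count describes members that were chosen with the peaks known. Each of the 3 summits also lay in the window of a neighbouring gene transcribed the other way. RAB-5 is the GTPase of early endosomes, and rab-5 (WBGene00004268) lies on the plus strand of chromosome I from 9308442 to 9310221. Its IDR summit at 9307705 was 737 bp upstream of rab-5 and 861 bp upstream of the divergent gene nmat-2, which encodes a nicotinamide mononucleotide adenylyltransferase. The summit thus lay between the 2 genes, closer to rab-5. The strongest window summit had rank 392 in replicate 1, 891 in replicate 3 and 740 in replicate 4, within 19, 10 and 131 bp of the pooled summit. Replicate 2 had no summit within 12 kb of it, the nearest being 12592 bp away.

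RAB-7, the GTPase of late endosomes and lysosomes, is encoded by rab-7 (WBGene00004271; II, 11965523 to 11966931, minus strand). The IDR peak, from 11967494 to 11967863, had its summit at 11967679, 748 bp upstream of rab-7. The same summit lay 135 bp upstream of W03C9.5 and 958 bp upstream of mex-1, a divergent gene for a zinc finger protein of the early embryo. W03C9.5, on the same strand as rab-7, runs from 11966885 to 11967544. It overlaps both the 5′ end of rab-7 and the edge of the peak. The summit cannot be given to rab-7 alone, and W03C9.5 is nearest. The strongest window summit ranked 311 in replicate 1, 1160 in replicate 3 and 128 in replicate 4, at distances of 39, 168 and 27 bp from the pooled summit. Replicate 2 had none in the window, and its nearest summit lay inside rab-7, 655 bp downstream of the 5′ end in a coding exon (rank 1725).

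The gene rab-11.1 (WBGene00004274; chromosome I, 108682 to 110057, minus strand) encodes a Rab11 GTPase of recycling endosomes. Its IDR summit at 110747 was 690 bp upstream of rab-11.1 and 291 bp upstream of rpl-7, a gene for a ribosomal protein of the large subunit that is transcribed the other way. The non-coding RNA genes F53G12.15 and F53G12.16 lie within 200 bp, and the summit falls inside F53G12.16, at 110551 to 110771. The strongest window summit ranked 697 in replicate 1, 642 in replicate 2, 150 in replicate 3 and 1247 in replicate 4. These were not one site: replicates 1 and 3 were within 7 and 17 bp of the pooled summit, while the summit of replicate 2 was in a coding exon 182 bp downstream of the 5′ end and that of replicate 4 was 112 bp upstream. Replicate 4 also had a summit 17 bp from the pooled one, of rank 9793.

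RAB-10 acts in recycling from endosomes, in worms best known in the intestine. At rab-10 (WBGene00004273; chromosome I, 6457282 to 6458479, minus strand) the pooled window summit was weak (rank 16703, −log10 q-value 0.195) and lay in a coding exon 100 bp downstream of the 5′ end. Replicate 1 had a window summit of rank 14450, 674 bp upstream, and the other three had none. A stronger pooled summit of rank 6565 was in a coding exon 329 bp downstream. An IDR summit of rank 313 lay outside the window, 1214 bp upstream of rab-10 and 1185 bp from the 5′ end of the divergent gene knl-2, a kinetochore gene. It had a summit within 200 bp in replicate 1 (rank 1853), replicate 3 (rank 312) and replicate 4 (rank 185), and not in replicate 2. A window of 2000 bp would count it, and rab-10 would then be the fifth member with an IDR peak. The share of all protein-coding genes at that width is not given here.

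Among the genes of regulated secretion, rab-3 encodes the GTPase of synaptic vesicles. The gene (WBGene00004267; II, 5721767 to 5727853, minus strand) had no IDR summit and no pooled summit in its window, and only replicate 3 had a window summit (rank 7618, 747 bp upstream). Its pooled peak lay in the first intron, 2879 bp long, with the summit at 5725276 and rank 2339. That place is 2577 bp downstream of the 5′ end of the longer transcript and 546 bp upstream of the 5′ end of the shorter one, at 5724730. Replicate 3 had a summit at the same base (rank 733), replicate 4 one 40 bp away (rank 5440), and replicates 1 and 2 none within 8 kb, at 8579 and 22398 bp. With every annotated transcript start in use, rab-3 would have a pooled window summit and 7 of the 10 genes would have one. No further member would have an IDR summit. The share of all protein-coding genes under that setting is not given here. At rab-2 and rab-3, the members with more than 1 annotated 5′ end, the intronic pooled peak lay upstream of an internal transcript start. Both peaks were in the first intron, and the internal starts of these genes lie farther downstream. A link between the peaks and those starts was not tested.

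The gene rab-8 (WBGene00004272; chromosome I, 3682890 to 3684086, minus strand), for a GTPase of transport from the Golgi to the plasma membrane, was the 1 member with no window summit in any list. Its one body summit, in replicate 3, had rank 17421. An IDR summit of rank 422 lay 764 bp beyond its 3′ end at 3682126, nearest to the 5′ end of ftn-2, a ferritin gene, at 1199 bp. That summit was within 15, 7 and 42 bp of summits of replicates 1, 3 and 4, and 2132 bp from the nearest of replicate 2.

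**Figure D2:**
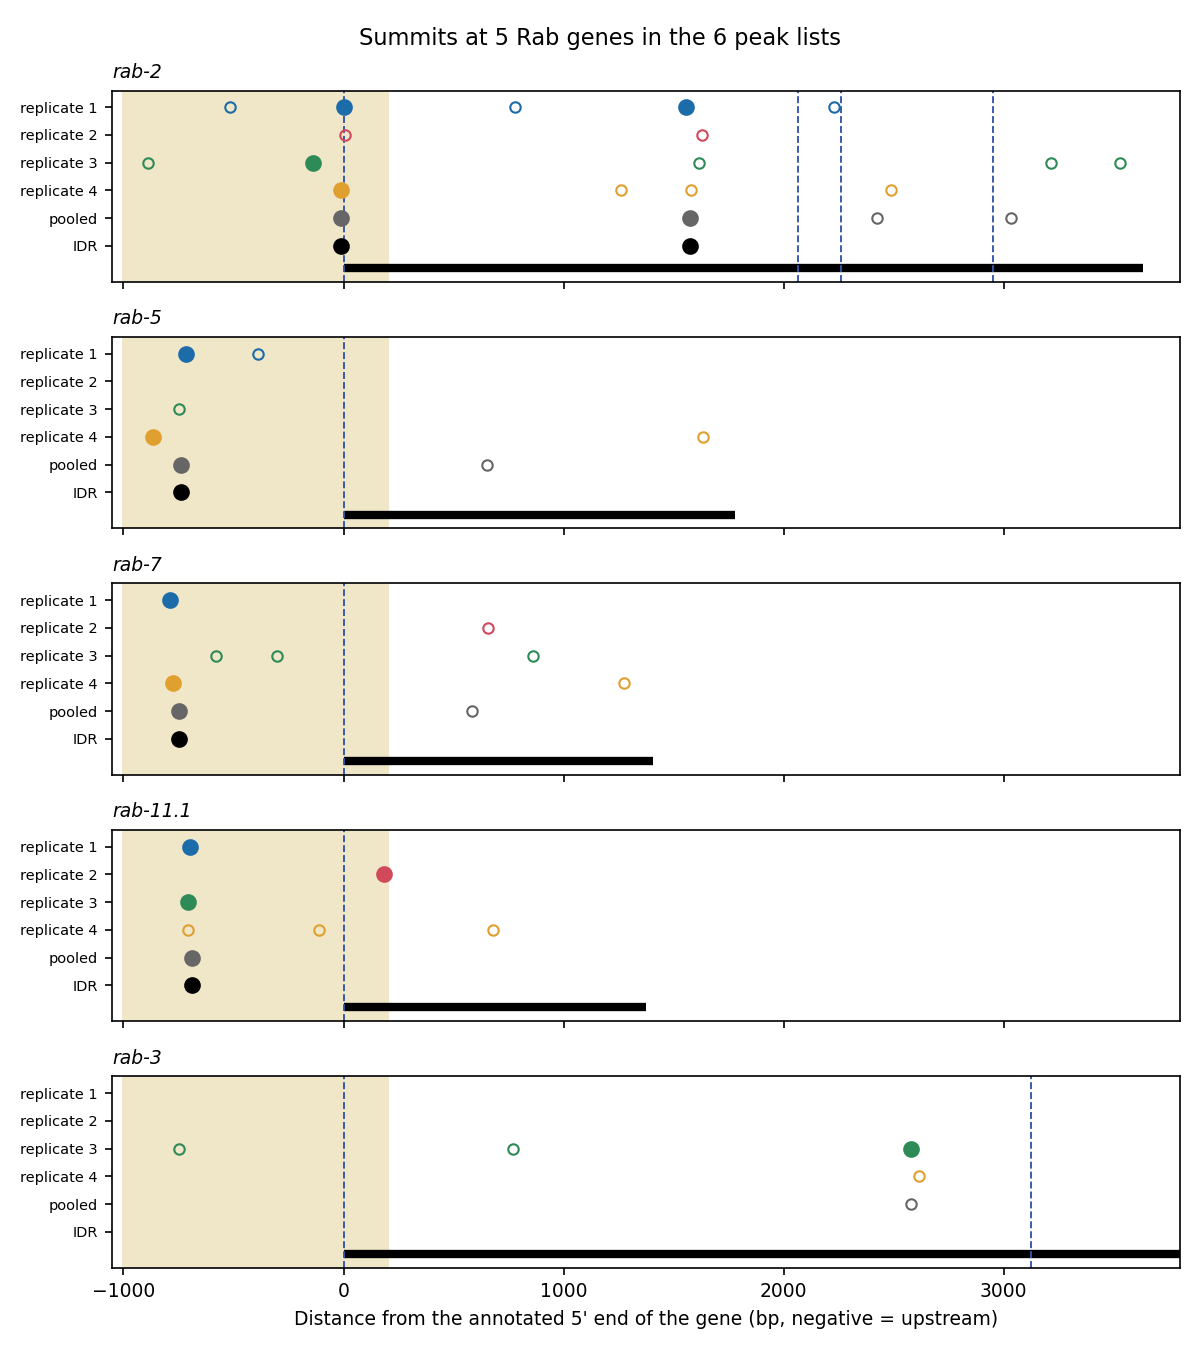
Position of every summit in the window or body of 5 genes relative to the annotated 5′ end (bp, negative upstream) in the 6 lists; shading is the promoter window, the black bar the gene (rab-3 continues beyond the axis), dashed lines the 5′ ends of annotated transcripts, and filled symbols are at least as strong in rank as the weakest IDR peak. The IDR summit of rab-2 sits 12 bp upstream of the 5′ end, while those of rab-5, rab-7 and rab-11.1 sit 690 to 748 bp upstream.

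Across the members, the replicates differed in how many genes they marked. A window summit was present at 7 genes in replicate 1, 2 in replicate 2, 8 in replicate 3 and 5 in replicate 4, a mean of 5.5 ± 2.65 (SD, n = 4). Of all protein-coding genes the same lists had one at 37.9%, 10.4%, 26.8% and 19.6%, so replicate 2, with the shortest list, was lowest in the members and in all genes. Among the strongest peaks of each replicate, as many as the IDR list holds, the counts were 4, 1, 2 and 3 genes in replicates 1 to 4, against 2.32%, 1.81%, 2.07% and 2.13% of all protein-coding genes. A window summit in all 4 lists was found at 2 members, rab-2 and rab-11.1, against 2.6% of all protein-coding genes (520), and at rab-11.1 it was not the same site. Without replicate 2, 5 members had one in all remaining lists (rab-2, rab-5, rab-6.2, rab-7 and rab-11.1), against 6.93% of all genes. At rab-6.2 these were not one site, as the summits of replicates 1, 3 and 4 lay 0, 217 and 430 bp from the pooled one. In gene bodies the pooled list had a summit at 6 of 10 members and at 42.9% of all protein-coding genes.

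Beside rab-2, rab-3 and rab-10, the genes with a pooled body summit were rab-5, rab-6.2 and rab-7, and all 3 summits were intronic and weak. That of rab-7 had rank 7585, 583 bp downstream of the 5′ end, with a summit of replicate 2 (rank 1725) 72 bp away. That of rab-6.2 had rank 21317, 1287 bp downstream, with a summit of replicate 3 (rank 2885) 6 bp away. That of rab-5 had rank 17172, 654 bp downstream, and no replicate had a summit within 200 bp of it. Body summits were present at 3, 3, 6 and 6 members in replicates 1 to 4, a mean of 4.5 ± 1.73 (SD, n = 4). Of all protein-coding genes the same lists had a body summit at 46.4%, 15.1%, 34.7% and 24.7%. The members' share was below that of all genes in replicate 1 and above it in the others. The first 200 bp of a gene belong to both regions, so some of these summits were also counted in the window. At rab-2 the strongest body summit was the strongest window summit in replicates 1 and 2 (ranks 90 and 1338). The same held at rab-11.1 in replicate 2 (rank 642) and rab-6.2 in replicate 4 (rank 11406).

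The position of the IDR summits separated rab-2 from the other three. Over all 519 genes with an IDR summit in the window the median position was 262 bp upstream, with quartiles at 460 and 154 bp. The rab-2 summit lay nearer to the 5′ end than this range and those of rab-5, rab-7 and rab-11.1 lay farther away. Among the 519 genes, 47.8% (248) shared the summit with another gene's window, and 74% (384) were the nearest gene to an IDR summit in their window. Of the 4 members 3 shared theirs, and rab-2 and rab-5 were nearest to it.

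Base composition and motifs around the summits were described within 50 bp. The GC content was 51.5% at rab-2, 47.5% at rab-5, 61.4% at rab-7 and 57.4% at rab-11.1. The median was 48.5% over 390 IDR peaks in promoter windows, with quartiles at 42.6% and 53.5%, and 38.6% over the 7655 pooled peaks there. The weaker pooled summits had 56.4% at rab-6.2 and 37.6% at rab-10. Of the 6 motifs, the E-box was found at rab-7 only, and it occurred in 4.36% of the IDR promoter windows and 2.51% of the pooled ones. A GATA form (TGATAG) was found at the promoter summit of rab-2, and at least 1 of the 4 GATA forms occurred in 15.1% of the IDR windows and 23.5% of the pooled ones. GATA forms were also found at the strongest pooled body summits of rab-2 (AGATAA), rab-3 (AGATAG) and rab-6.2 (AGATAG). The GAGA repeat was at 0 of the 6 promoter summits of members, against 11.8% of the IDR windows and 4.66% of the pooled ones, and it was found at the intronic summit of rab-3. A match describes the letters under a peak and is not evidence of binding by a factor.

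The rest of the pathway was followed in 6 gene lists. Only symbols matched to an annotated gene were counted, and the others were not examined. Matches were found for 18 of 21 symbols of other Rab genes and 41 of 45 of regulators and effectors. They were found for 27 of 28 coat, 29 of 30 tether and 31 of 31 SNARE symbols. Of 18 other Rab genes, 1 had an IDR summit in the window (5.56%). It was rab-14, whose GTPase acts between the Golgi and endosomes and in the ripening of phagosomes, at rank 371, 529 bp upstream and shared with nipi-3. Its strongest window summit had rank 315 in replicate 1, 1105 in replicate 3 and 1037 in replicate 4, and replicate 2 had none. A pooled summit of any strength lay at 10 of the 18 (55.6%).

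Of 41 Rab regulators and effectors, 2 had an IDR summit in the window (4.88%). They were tbc-6 (rank 318, 91 bp downstream of the 5′ end), which encodes a TBC protein, and ccz-1 (rank 483, 116 bp upstream), which encodes a partner of SAND-1 in the activation of RAB-7. Both had a window summit in all 4 replicates, at ranks 927, 122, 235 and 768 for tbc-6 and 1441, 406, 1184 and 2691 for ccz-1. The summit of ccz-1 was shared with tag-65.

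Among the machinery that acts beside the Rab proteins, 2 of 27 vesicle coat genes had an IDR summit in the window (7.41%), apa-2 (rank 265) and dpy-23 (rank 333), which encode the alpha and mu subunits of the AP-2 adaptor of clathrin. Their IDR summits lay 710 and 309 bp upstream with no other window over them. A summit anywhere in the window was present in all 4 replicates at apa-2 and in 3 at dpy-23. Of 29 tether genes 1 had one (3.45%), the exocyst gene sec-15 (rank 87, 336 bp upstream), whose summit lay nearer to the 5′ end of C28G1.2. Of 31 SNARE genes 1 had one (3.23%), memb-1 (rank 641, 156 bp upstream), a Golgi SNARE with a window summit in all 4 replicates. Of 10 Arf and Sar GTPase genes 0 had one. A further 4 of the 14 listed symbols (arf-1.1, arf-1.2, arf-3 and arl-7) matched no annotated gene and were not examined. Beside the background of 2.6%, counts of 0 to 2 genes do not set any of these lists apart. Pooled summits were present at 43.9% to 74.1% of the genes in the lists, against 37.5% of all protein-coding genes.

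**Figure D3:**
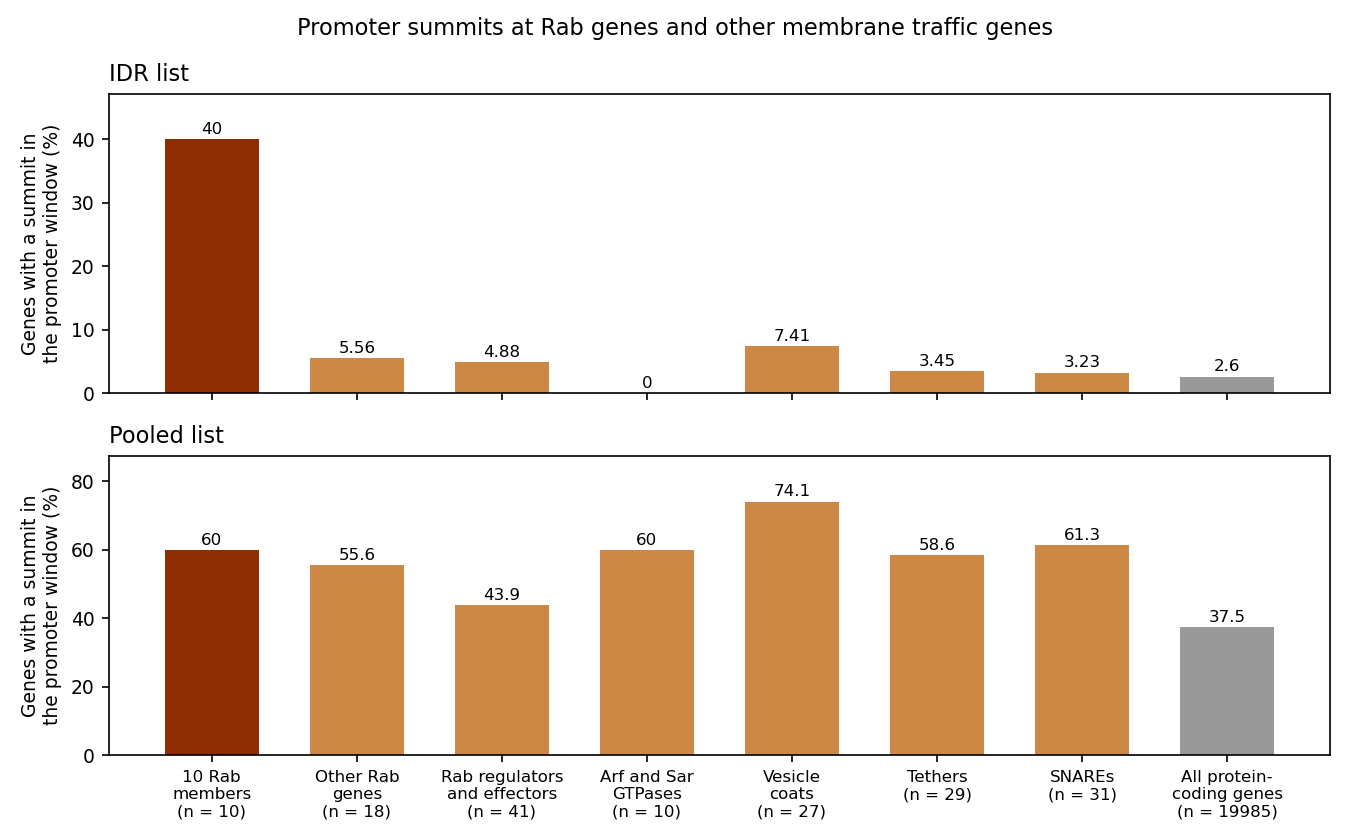
Share of genes with a summit in the promoter window, in percent, for the IDR list (top) and the pooled list (bottom), with the number of genes under each bar; bars start at 0. The 10 Rab members stand at 40% and 60%, values that the choice of members used, the 6 other lists at 0% to 7.41% and 43.9% to 74.1%, and all protein-coding genes at 2.6% and 37.5%.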

How the data were processed

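The 6 peak lists on ce11 were used; the ce10 lists were not used here. By the README texts that accompany them, each replicate list came from that replicate's alignment and a common control, the pooled list from all 4 alignments, and the IDR list from these lists. The aligner, the peak caller and the IDR threshold were not given in the sources used here. Peaks were ranked within each list by the deposited score, the authors' signal value, whose scale is unstated. A −log10 q-value, likewise deposited by the authors, is printed for weak peaks only.

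The summit was the peak start plus the deposited offset. Genes were those of Ensembl release 115 on WBcel235, and no peak ended beyond its chromosome. Of the members 9 matched by symbol and rab-2 by its RefSeq product name. The members, lists and motifs were chosen with earlier results of these data known. Named genes were the members, genes sharing their strongest pooled summit or nearest to it, and up to 4 genes per list with IDR summits in the window; genes next to flanking IDR summits were added after their values were seen. Window assignment was checked on planted summits, with 200 of 200 genes recovered. Analyses ran in Python 3.11.15, numpy 2.4.6 and pandas 2.3.3. Alternatives were other windows, every transcript start, nearest gene only, peak overlap, a stricter IDR list, shorter replicate lists, 3 distances between summits, and leaving out each replicate.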

Additional observations from a re-analysis of the deposited data

How the results depend on the processing

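For changed windows, assignments, list lengths and distances the share of all protein-coding genes is not given, so those counts have no background beside them. With a window of 500 bp upstream, 1 member had an IDR summit and 3 a pooled one. At that width 1 member had a window summit in all replicate lists and 0 other Rab genes had an IDR summit. The median pooled rank was 8229. The IDR summits lost lay 690 to 748 bp upstream in 3 members and 529 bp upstream at rab-14. With each summit given to the nearest gene only, 2 members (rab-2 and rab-5) had an IDR summit, 1 had a window summit in all replicate lists, and the median pooled rank was 4432. With 2000 bp upstream 5 members had an IDR summit. The count of members with a window summit in all lists, 2 as reported, was 0 with each replicate list cut to the length of the IDR list. It was 0, 1 and 1 when summits had to lie within 100, 200 or 400 bp of the pooled one. With 1 replicate left out it was 2 to 5, the 5 without replicate 2, against 2.92% to 6.93% of all protein-coding genes. Of 38 alternatives, 25 stayed within 1.5 times the reported count or, for the median rank, within the spread between replicates. No paired analysis was possible because there is 1 group. Read depth is unknown, so a missing summit, above all in the short list of replicate 2, does not show that a gene was unoccupied.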

Other observations

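In the regulator list, tbc-6 and rme-1 had an IDR summit in the gene body and are named after their values were seen. The first has a stronger IDR peak there (rank 47) than in its window (rank 318), and rme-1 (rank 656) encodes an EHD-family protein of the recycling endosome. Among all other protein-coding genes, those whose 4 replicate ranks lay nearest to the ranks of rab-2 (90, 1338, 628 and 312) were F02E9.5 (172, 1080, 1134 and 171), ZC506.1 (76, 2222, 1485 and 200) and Y15E3A.5 (211, 782, 594 and 588). Their root mean square differences from rab-2 were 0.236, 0.24 and 0.259 on the log10 rank scale, over 4 replicates. All 3 had an IDR summit in the window, at ranks 212, 97 and 218. This is not a separate result, because the genes were picked by replicate ranks near those of an IDR gene. The IDR list is the top of the list pooled from the same replicates.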
